A study of Rattus norvegicus with 6 samples.

Results

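The mitochondrial ribosomal protein genes were followed through adipogenic induction of ADSCs, which are stem cells derived from the adipose tissue of rats and are able to become fat cells. They were taken by name: every row of the deposited table whose single annotated symbol starts with Mrpl or Mrps followed by a digit. This gave 72 of 18166 genes, 45 named Mrpl and 27 named Mrps, and each had 1 feature on the array. The induced group comprised 3 arrays of ADSCs, taken from the inguinal fat of female Wistar rats aged 2 weeks, after 7 days in α-MEM with 0.5 mM 3-isobutyl-1-methylxanthine (IBMX, a phosphodiesterase inhibitor that raises cAMP), 1 µM dexamethasone (a glucocorticoid), 5 µg/ml insulin and 20% fetal bovine serum. The control group comprised 3 arrays of ADSCs of the same origin in α-MEM with 10% fetal bovine serum, so serum and inducers differed together. The labels call the replicates biological without tying them to separate animals, so p-values measure the spread between these cultures, which may be technical. They give no culture time for the control cells.

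Mitochondria carry their own ribosome. It translates the few messenger RNAs of the mitochondrial genome, which encode core subunits of the respiratory chain and of ATP synthase. Its RNAs are made inside the organelle, while all of its proteins are encoded in the nucleus, made in the cytosol and imported. Some descend from bacterial ribosomal proteins and others are specific to mitochondria. By the known structures of the mammalian mitoribosome, the measured genes included 46 for proteins of the large subunit, which forms peptide bonds, and 24 for proteins of the small subunit, which reads the mRNA. The remaining 2, Mrpl41l1 and Mrps21l, are named as copies of Mrpl41 and Mrps21. Whether their features also bind transcripts of those parent genes was not tested. White adipocytes gain mitochondria as they mature.

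Values are log2 signals, and each difference is induced minus control on that scale. Array medians over all features ran from 5.64 to 5.73, so the arrays were on a common scale. The induced cultures carried the adipocyte programme: all 17 measured adipocyte markers lay higher on every induced array than on any control array, and 9 of them rose (limma, adjusted p under 0.05 over all genes). Those 9 included Thrsp (6.04), Gpd1 (4.93), Rbp4 (4.77) and Retn (4.72), each given as its log2 difference. Pparg, the master regulator of adipogenesis, read 10.26, 9.99 and 11.48 on induced replicates 1, 2 and 3, against 8.17, 6.55 and 6.00 on control replicates 1, 2 and 3. The adipokine gene Adipoq read 11.89, 11.69 and 12.85 on the induced arrays, against 10.04, 7.62 and 6.98 on the control arrays. Neither of these passed the test (limma adjusted p = 0.065 for Pparg and 0.0866 for Adipoq), and in both control replicate 1 was the highest control array. Induced replicate 3 thus had the strongest adipocyte signal, and control replicate 1 the strongest among controls. Induced replicate 3 also stood apart over the whole array, with a correlation across features of 0.968 and 0.969 with induced replicates 1 and 2, which correlated at 0.989 with each other.

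Mitoribosomal protein genes had mostly positive estimates in induced against control cells, and none of the 72 passed the test. By limma with Benjamini-Hochberg adjustment over all genes, 0 of 72 were called, where 0.749% of all 18166 genes were. The smallest adjusted p among them was 0.156. At an unadjusted p under 0.05 there were 13 of 72 (18.1%), all with positive estimates, against 8.13% of all genes with a positive estimate at that level, and 0 of 72 with a negative one, against 9.51% of all genes. Of the 72 estimates 68 were positive, where 47.6% of all genes had a positive estimate. The median estimate was 0.35 (range -0.16 to 0.98), against -0.013 over all genes. No estimate reached 1, that is 2-fold, in either direction. In bulk RNA, more adipocytes in a culture and more of these transcripts per cell cannot be told apart.

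The 95% intervals were wide relative to these differences. Standard errors ran from 0.094 to 0.36 with a median of 0.24, against a median of 0.15 over all genes. The interval excluded 0 for 13 genes. For 27 genes the interval reached past 1, so a 2-fold difference was not resolved with 3 arrays a group, and for the remaining genes it ended below 1.

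**Figure D1:**
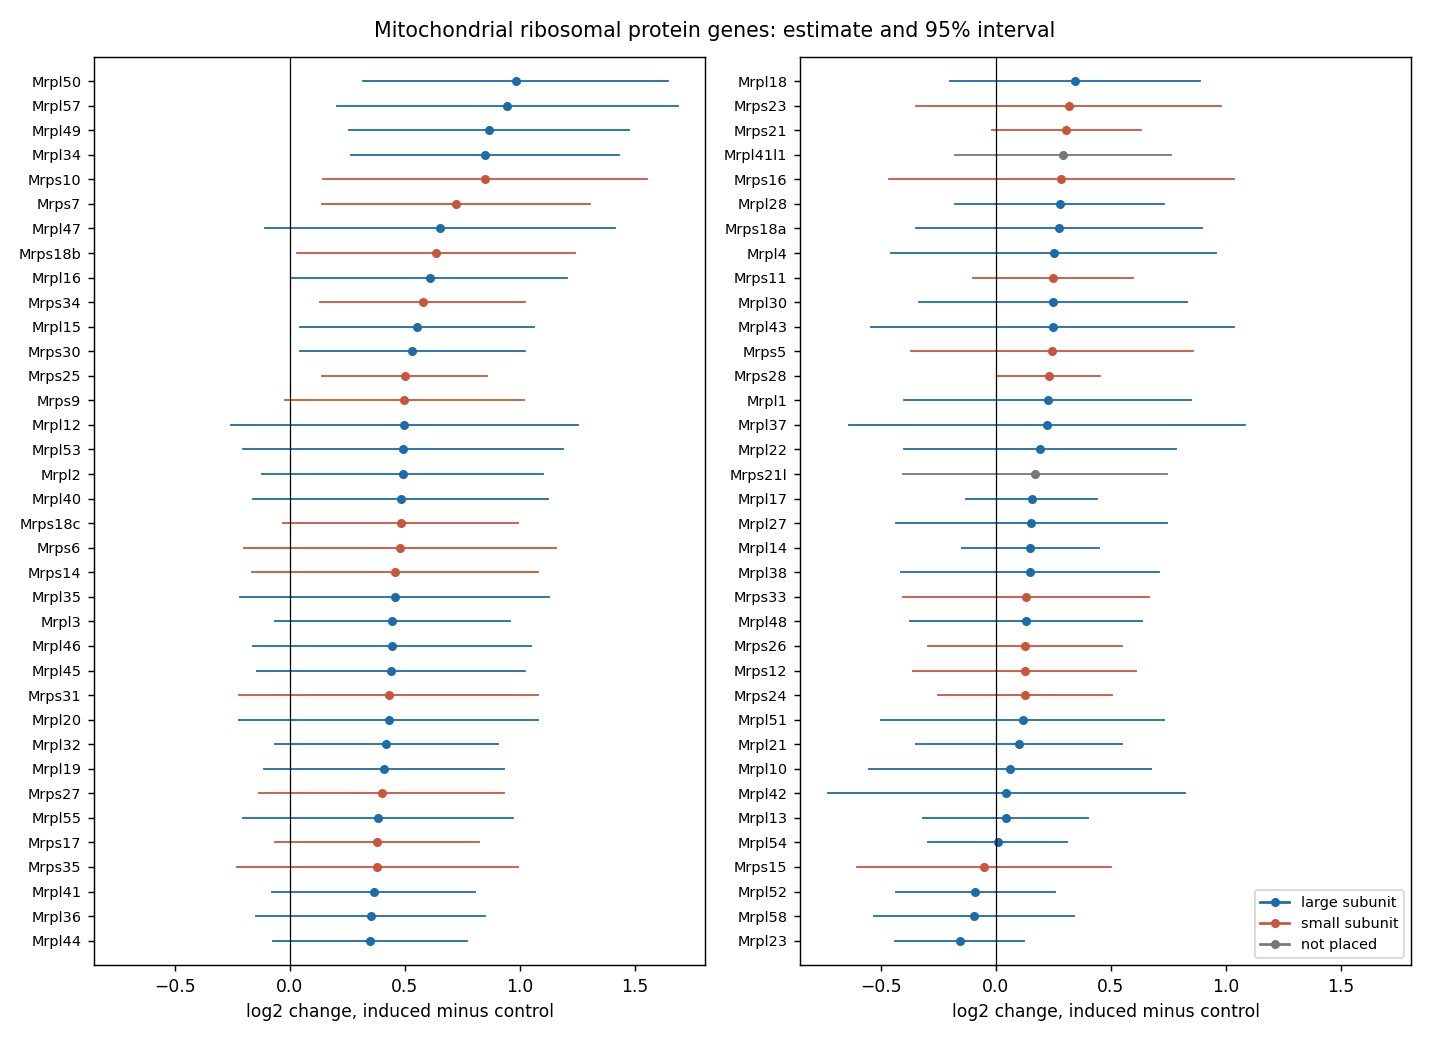
Estimated log2 change (induced minus control, points) and its 95% interval (lines) for the 72 mitochondrial ribosomal protein genes, ordered by estimate and coloured by ribosomal subunit (n = 3 arrays a group). Estimates run from 0.98 for Mrpl50 to -0.16 for Mrpl23, and 68 of 72 lie to the right of 0.

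The difference lay mostly on 1 array. The mean over the 72 genes was 8.08, 8.21 and 8.78 on induced replicates 1, 2 and 3, against 8.17, 7.97 and 7.90 on control replicates 1, 2 and 3. Induced replicate 3 lay highest, while control replicate 1 lay above induced replicate 1, so the groups overlapped. Gene by gene, induced replicate 3 was the highest of the 3 induced arrays for 68 of 72 genes, where this held for 38.6% of all genes. It was the highest of all 6 arrays for 67, where this held for 26.0% of all genes. Set against the control mean, the median over the 72 genes was 0.056 on induced replicate 1, 0.19 on induced replicate 2 and 0.78 on induced replicate 3. On induced replicate 3, 20 genes lay more than 2-fold above their control mean, and on induced replicates 1 and 2 the number was 0 each. The share of all genes so placed was not counted.

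**Figure D2:**
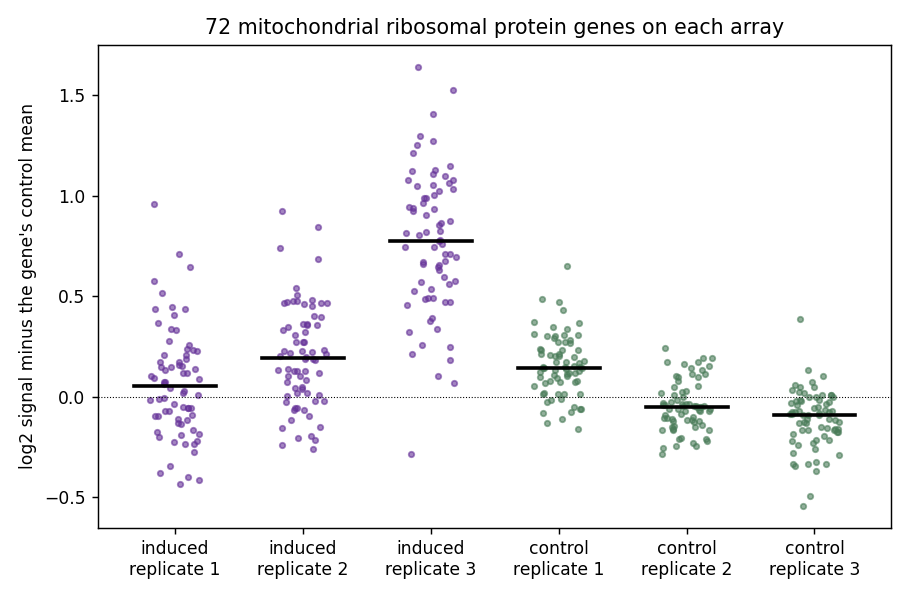
Log2 signal of each of the 72 genes minus that gene's mean over the control arrays, on each of the 6 arrays (points, 1 per gene; black bars, medians). The median is 0.78 on induced replicate 3, against 0.056 and 0.19 on induced replicates 1 and 2, which overlap the control arrays.

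Pairs of arrays were compared in the same way. Induced replicate 1 was higher than control replicate 1 for 27 of 72 genes, than control replicate 2 for 43 and than control replicate 3 for 48. Induced replicate 2 was higher than control replicates 1, 2 and 3 for 43, 57 and 60 genes. Induced replicate 3 was higher than them for 68, 71 and 70 genes. Without induced replicate 3, 48 of 72 estimates were positive, where 47.9% of all genes were, the median was 0.14 and 0 of 72 genes were called, while 557 of all genes were called. Without the replicate 3 arrays of both groups, 46 of 72 were positive, with a median of 0.092. Marker lists of the adipocyte and of other cell types were averaged on the same arrays. The mean of the 17 adipocyte markers was 11.25, 11.18 and 12.30 on induced replicates 1, 2 and 3, against 8.65, 7.38 and 7.46 on the control arrays. The 12 mesenchymal stromal markers averaged 10.81, 10.88 and 9.88 on the induced arrays, against 11.18, 11.10 and 11.06 on the control arrays. The 15 macrophage and leukocyte markers averaged 7.77, 7.30 and 6.01 on the induced arrays, against 6.64, 7.00 and 5.51 on the control arrays, and were lowest on replicate 3 of both groups. Of these 15 genes 13 had positive estimates and 0 were called, with C1qb at 1.89 (SE 0.79) and Cd68 at 1.39 (SE 0.67). Unlike the list mean, Cd68 was highest of the 6 arrays on induced replicate 3 (9.45), as held for 2 of the 15 genes. Of the stromal markers 11 of 12 were negative and 0 were called, with Nt5e at -1.10 and Lum at -0.98. The 9 endothelial markers averaged 5.21, 5.25 and 5.22 on the induced arrays, against 5.20, 5.33 and 5.36 on the control arrays, all below the median array signal, with 0 called, Tek at -0.74 and Egfl7 at 0.61. The 8 mural cell markers averaged 6.82, 6.67 and 6.60 on the induced arrays, against 6.70, 7.08 and 6.90 on the control arrays, with 0 called, Notch3 at 0.80 and Myh11 at -0.62. All 19 mitosis genes had negative estimates, with a median of -1.14, and Kif23 fell by 1.28 (limma adjusted p = 0.0424). The part of cell types and of proliferation in the mitoribosomal values was not tested.

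For 20 of the 72 genes all 3 induced arrays lay above all 3 control arrays, where this held for 12.0% of all genes, and for 0 genes did they all lie below, where this held for 13.4%. The number depended on single arrays, since it was 35 without control replicate 1 and 35 without induced replicate 1, where 18.1% and 15.8% of all genes were so placed.

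Promoters were searched for short motifs of factors known to drive mitochondrial genes. Promoter sequence from RefSeq (build GRCr8, 250 bases before to 50 after the annotated start) was matched by gene ID for 58 of the 72 genes. The ETS core, bound by GABP and related factors, was searched as CCGGAAG on both strands and found in 20 of 58 genes (34.5%), against 12.9% of 14502 measured genes with a promoter in the table. The NRF1 core GCATGCG was found in 6 of 58 (10.3%), against 4.81% of measured genes. The YY1 core AAGATGG was found in 16 of 58 (27.6%), against 7.77%. This motif contains ATG, and within the 250 bases before the start 5 of 58 genes held it (8.62%), against 4.54%. The ETS core there was in 12 of 58 (20.7%), against 11%. The ERR element AAGGTCA was found in 3 genes (5.17%, against 3.65%), the E-box CACGTG in 6 (10.3%, against 8.17%) and the CRE core TGACGT in 6 (10.3%, against 9.62%). The ETS core was also in 31% of 58 respiratory chain genes and 28.3% of 46 cytosolic ribosomal protein genes. In the same 2 lists the YY1 core was in 29.3% and 19.6%, and the NRF1 core in 15.5% and 8.7%.

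Estimates of genes with and without a motif overlapped widely, and their difference was not tested. The median estimate was 0.33 for 20 genes with the ETS core and 0.36 for 38 genes without it, and 0.27 for 6 genes with the NRF1 core and 0.36 for 52 without it. For the YY1 core it was 0.43 for 16 genes with it and 0.31 for 42 without it. The genes Mrpl57 and Mrpl23, near the top and at the bottom of the estimates, both hold the ETS core within 100 bases of the start. Mrps18b and Mrpl17 hold the NRF1 core, with the palindrome formed by both strands of the motif. The 100 bases before the annotated start of each are given below 5′ to 3′ on the strand of the gene, with every searched motif in capitals, including an E-box in Mrps18b. They lie at chr15:36086357-36086456 on the plus strand for Mrpl57, chr1:207116830-207116929 on the plus strand for Mrpl23, chr20:2842906-2843005 on the plus strand for Mrps18b and chr1:169575700-169575799 on the minus strand for Mrpl17.
Mrpl57: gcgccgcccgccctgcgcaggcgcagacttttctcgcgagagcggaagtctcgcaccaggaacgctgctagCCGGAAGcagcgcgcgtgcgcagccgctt
Mrpl23: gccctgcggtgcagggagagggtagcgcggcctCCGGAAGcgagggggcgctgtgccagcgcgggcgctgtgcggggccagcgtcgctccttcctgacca
Mrps18b: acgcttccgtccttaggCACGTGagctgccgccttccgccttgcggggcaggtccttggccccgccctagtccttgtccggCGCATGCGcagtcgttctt
Mrpl17: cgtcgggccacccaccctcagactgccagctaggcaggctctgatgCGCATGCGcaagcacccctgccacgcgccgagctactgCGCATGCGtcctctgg
A match is a string of letters and not a shown binding site. Mrpl17 read 10.03, 10.26 and 10.30 on the induced arrays, against 10.13, 9.99 and 10.00 on the control arrays, a difference of 0.16 (SE 0.12). Its groups overlapped. Mrpl17 was named for the NRF1 palindrome, which the stretch holds at 2 places, after its values were seen.

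Among large subunit genes, Mrpl50, Mrpl57, Mrpl49 and Mrpl34 had the highest estimates. Mrpl50 encodes a protein specific to the mitochondrial ribosome. It read 7.43, 7.70 and 8.38 on induced replicates 1, 2 and 3, against 7.22, 6.65 and 6.69 on control replicates 1, 2 and 3. The groups did not overlap, and the difference was 0.98 (SE 0.28, limma adjusted p = 0.156), or 1.98-fold. Mrpl57, also specific to mitochondria, read 7.80, 7.97 and 8.93 on the induced arrays, against 7.58, 7.17 and 7.11 on the control arrays. Its difference was 0.95 (SE 0.31, limma adjusted p = 0.199). The groups did not overlap, though induced replicates 1 and 2 lay nearer to control replicate 1 than to induced replicate 3. Mrpl49, another mitochondria-specific protein, read 8.67, 8.77 and 9.24 on the induced arrays, against 8.33, 8.22 and 7.53 on the control arrays. The groups did not overlap, with induced replicate 3 the highest and control replicate 3 the lowest, and the difference was 0.87 (SE 0.25). Mrpl34, homologous to the bacterial protein L34, read 9.38, 9.21 and 9.97 on the induced arrays, against 9.01, 8.55 and 8.44 on the control arrays, without overlap and with a difference of 0.85 (SE 0.24). The limma adjusted p was 0.168 for Mrpl49 and 0.161 for Mrpl34.

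For Mrpl12 the difference lay almost wholly on induced replicate 3. It encodes the homologue of the bacterial stalk protein L7/L12, which brings translation factors to the ribosome. It read 7.99, 7.98 and 9.15 on induced replicates 1, 2 and 3, against 7.85, 7.85 and 7.92 on control replicates 1, 2 and 3. Induced replicate 3 stood 1.16 above the mean of the other induced arrays, which in turn stood 0.11 above the control mean. The groups did not overlap, and the difference was 0.50 (SE 0.32, limma adjusted p = 0.471). Mrpl37, a mitochondria-specific protein, was picked after its values were seen. It read 9.53, 9.54 and 10.87 on the induced arrays, against 9.83, 9.81 and 9.63 on the control arrays, so induced replicates 1 and 2 lay below every control array and induced replicate 3 above them all. Its step of 1.33 between induced replicate 3 and the other induced arrays was the highest of the 72.

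Of the 6 lowest estimates 5 belonged to the large subunit, which held 46 of the 72 genes. Mrpl23, homologous to the bacterial protein L23 at the exit of the peptide tunnel, read 9.15, 9.34 and 9.05 on the induced arrays, against 9.41, 9.30 and 9.30 on the control arrays. The groups overlapped and the difference was -0.16 (SE 0.12, limma adjusted p = 0.553). Mrpl58, a peptidyl-tRNA hydrolase that frees stalled ribosomes and sits in the large subunit, read 8.49, 8.86 and 9.14 on the induced arrays, against 9.07, 8.85 and 8.85 on the control arrays, a difference of -0.095 (SE 0.18). Mrpl52 stood at -0.088 (SE 0.14), Mrpl54 at 0.0080 (SE 0.13) and Mrpl13, the L13 homologue, at 0.043 (SE 0.15). In all 5 the arrays of the groups overlapped, and each interval included 0.

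In the small subunit the highest estimates were those of Mrps10 and Mrps7. Mrps10, homologous to bacterial S10, read 8.87, 8.84 and 8.58 on induced replicates 1, 2 and 3, against 8.56, 7.81 and 7.37 on control replicates 1, 2 and 3. The groups did not overlap, by a narrow margin between induced replicate 3 and control replicate 1, and the difference was 0.85 (SE 0.29, limma adjusted p = 0.22). Unlike most members it was lowest of the induced arrays on replicate 3, and induced replicates 1 and 2 averaged 0.94 above control, the highest such value of the 72. Mrps7, homologous to bacterial S7 in the head of the small subunit, read 9.77, 9.80 and 10.58 on the induced arrays, against 9.56, 9.17 and 9.24 on the control arrays. Its groups did not overlap and its difference was 0.72 (SE 0.24, limma adjusted p = 0.21).

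Mrps25 and Mrps34 were among the 6 members with the smallest unadjusted p by limma. Both encode mitochondria-specific proteins of the small subunit. Mrps25 read 8.20, 8.34 and 8.57 on the induced arrays, against 8.07, 7.83 and 7.70 on the control arrays, a difference of 0.50 (SE 0.15, limma adjusted p = 0.172). Mrps34 read 8.27, 8.31 and 8.65 on the induced arrays, against 8.14, 7.78 and 7.57 on the control arrays, a difference of 0.58 (SE 0.19, limma adjusted p = 0.194). In both the groups did not overlap, yet induced replicate 1 lay within 0.2 of control replicate 1. At the other end Mrps15, the S15 homologue, read 8.52, 8.72 and 9.40 on the induced arrays, against 9.03, 8.89 and 8.88 on the control arrays. It stood at -0.050 (SE 0.23), with induced replicates 1 and 2 below every control array and induced replicate 3 above them.

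The 3 relatives of bacterial S18 have separate places in the mitoribosome. Mrps18c holds the position of the bacterial protein, Mrps18b lies elsewhere in the small subunit and Mrps18a in the large subunit. Mrps18b read 8.97, 9.07 and 9.68 on the induced arrays, against 8.94, 8.63 and 8.23 on the control arrays, a difference of 0.64 (SE 0.25, limma adjusted p = 0.267). Mrps18c read 8.90, 8.94 and 8.99 on the induced arrays, against 8.95, 8.25 and 8.18 on the control arrays, a difference of 0.48 (SE 0.21, limma adjusted p = 0.307). Its induced arrays were nearly equal, and the overlap came from control replicate 1. Mrps18a read 9.49, 9.52 and 10.21 on the induced arrays, against 9.84, 9.43 and 9.13 on the control arrays, a difference of 0.28 (SE 0.26, limma adjusted p = 0.644). Mrps30, which despite its name is a large subunit protein in mammals, read 9.48, 9.55 and 10.02 on the induced arrays, against 9.45, 9.09 and 8.91 on the control arrays, a difference of 0.53 (SE 0.20, limma adjusted p = 0.253).

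Besides Mrps10, the genes for which induced replicate 3 was not the highest induced array were Mrpl23, Mrps24 and Mrpl18, the last 2 named after their values were seen. Mrps24, the homologue of bacterial S3, read 8.74, 9.13 and 8.90 on the induced arrays, against 9.00, 8.59 and 8.81 on the control arrays. Mrpl18, the L18 homologue, read 7.79, 8.16 and 8.05 on the induced arrays, against 8.13, 7.51 and 7.32 on the control arrays. Both overlapped between the groups. Mrps28, of the small subunit and also chosen after its values were seen, had the smallest standard error of the 72. It read 6.39, 6.37 and 6.40 on the induced arrays, against 6.17, 6.14 and 6.16 on the control arrays, a difference of 0.23 (SE 0.094, limma adjusted p = 0.277). The groups did not overlap, and replicates of a group lay close together. The mean signal of Mrps28 was slightly below that of the median gene (percentile 47.5). Whether signal level bears on the closeness of its replicates was not tested.

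**Figure D3:**
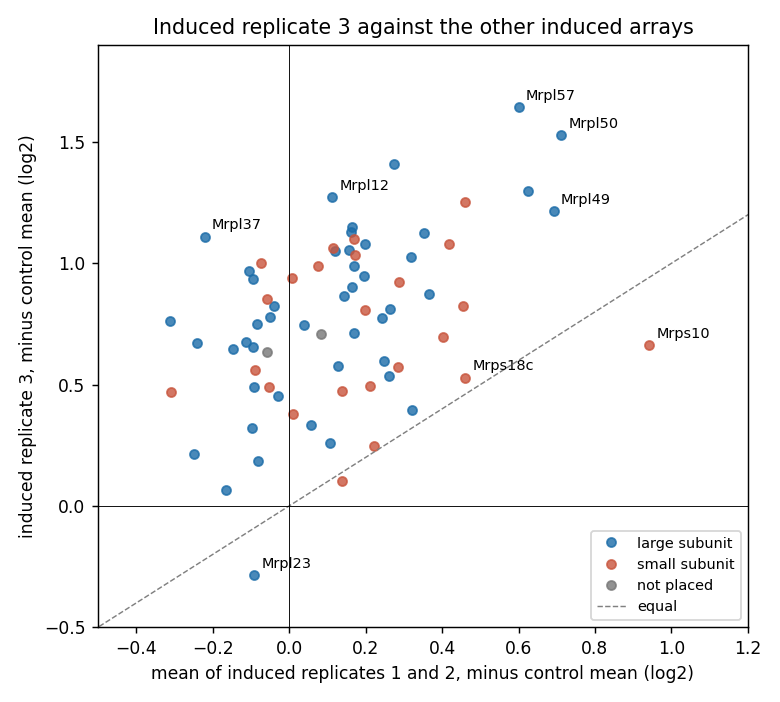
Each of the 72 genes by its mean on induced replicates 1 and 2 (horizontal) and its value on induced replicate 3 (vertical), both as log2 difference from the control mean and coloured by ribosomal subunit. All points but those of Mrps10, Mrpl23 and Mrps24 lie above the dashed line of equal values.

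Medians by subunit and by descent lay close together. The median estimate was 0.35 over 46 large subunit genes, of which 43 were positive, and 0.38 over 24 small subunit genes, of which 23 were positive. All induced arrays lay above all control arrays for 12 of 46 large subunit and 8 of 24 small subunit genes, where this held for 12.0% of all genes, and all lay below for 0 of either, where this held for 13.4%. Proteins specific to mitochondria had a median of 0.37 over 27 genes, and those with a bacterial homologue 0.34 over 39 genes. On induced replicate 3 alone the medians were 0.82 for the mitochondria-specific and 0.78 for the bacterial kind. These differences between classes were not tested.

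Of the 5 measured mitoribosomal proteins with other names 0 were called, and their median estimate was 0.067, against 0.35 for the Mrpl and Mrps genes, a difference that was not tested. Ptcd3, a small subunit protein with RNA-binding repeats, stood at 0.59 (SE 0.21, limma adjusted p = 0.219), Aurkaip1 at 0.23, and Dap3, the GTP-binding protein of the small subunit, at -0.16 (SE 0.12, limma adjusted p = 0.531). Dap3 was the 1 negative estimate of the 5, and Chchd1 stood at 0.067 and Gadd45gip1 at 0.053, these 3 being named after their values were seen. Among 25 genes of mitoribosome assembly 0 were called and 22 estimates were positive, with a median of 0.31. Induced replicate 3 was the highest of the 6 arrays for 18 of them, where this held for 26.0% of all genes. Ngrn stood at 0.53 and Mterf4, which guides an rRNA methyltransferase to the large subunit, at 0.51.

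All 13 mitochondrial translation factors had positive estimates, with a median of 0.52, and 0 were called. Rmnd1, needed for mitochondrial translation, stood at 0.79 (SE 0.26, limma adjusted p = 0.206) and the elongation factor Gfm1 at 0.75 (SE 0.32, limma adjusted p = 0.29). Gfm1 read 8.26, 8.25 and 9.37 on the induced arrays, against 8.12, 7.82 and 7.68 on the control arrays, with the step on induced replicate 3 again. Of 18 genes for mitochondrial tRNA charging 0 were called and 16 estimates were positive, with a median of 0.37. Gatb, a subunit of the amidotransferase that makes glutaminyl-tRNA, stood at 0.99 (SE 0.39) and Nars2, the asparaginyl-tRNA synthetase, at 0.76 (SE 0.27). Of 18 genes for mitochondrial transcription and genome upkeep 0 were called and 17 estimates were positive, with a median of 0.39. The transcription factor Tfb2m stood at 0.97 (SE 0.26, limma adjusted p = 0.148) and the elongation factor Tefm at 0.96 (SE 0.25, limma adjusted p = 0.133). Of 24 protein import genes 0 were called and 22 estimates were positive, with a median of 0.40, Timm21 standing at 0.94 and Timm10 at 0.83.

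Nuclear genes of the respiratory chain and ATP synthase had larger estimates. Their median was 0.70 over 66 genes, of which 65 were positive, 46 had all induced arrays above all control arrays, where 12.0% of all genes did, and 0 were called. On induced replicates 1, 2 and 3 their mean was 9.34, 9.45 and 10.43, against 9.20, 9.00 and 8.96 on the control arrays. All 3 induced arrays thus lay above the control arrays, which was not so for the mitoribosomal mean. On the mean of induced replicates 1 and 2 the median was 0.14 above control for the mitoribosomal genes and 0.34 for the respiratory chain genes. The difference between these lists was not tested. Ndufv3, a complex I subunit, stood at 1.58 (SE 0.50, limma adjusted p = 0.19) and Uqcrb, a complex III subunit, at 1.15 (SE 0.56).

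Cytosolic ribosomal proteins lay on the other side. Of 56 measured genes 51 had negative estimates, with a median of -0.24, and 0 were called. Their mean was 10.08, 10.22 and 9.73 on induced replicates 1, 2 and 3, against 10.36, 10.15 and 10.17 on the control arrays. The lowest value was that of induced replicate 3, the array with the highest mitoribosomal mean. Rps15 stood at -0.54 (SE 0.13, limma adjusted p = 0.114) and Rpl18 at -0.50 (SE 0.11, limma adjusted p = 0.103). Many cytosolic ribosomal proteins have processed copies in the genome, and the share of signal from such copies was not tested.

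**Figure D4:**
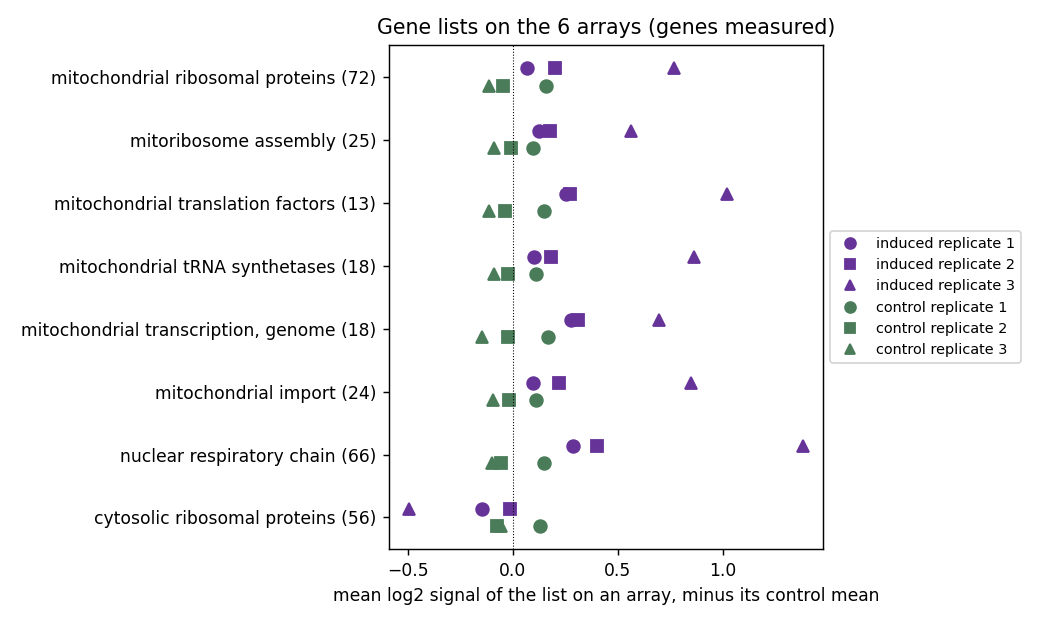
Mean log2 signal of each gene list on each of the 6 arrays, as the difference from that list's control mean, with the number of measured genes in brackets (induced arrays in the upper row of each list, control arrays in the lower row). Induced replicate 3 lies farthest right in every list drawn but the cytosolic ribosomal proteins, where it lies farthest left.

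Of the 12 regulators of mitochondrial biogenesis 5 had positive estimates, with a median of -0.075, and 0 were called. The coactivator Ppargc1b read 6.05, 5.92 and 8.23 on induced replicates 1, 2 and 3, against 5.49, 5.30 and 5.01 on control replicates 1, 2 and 3, a difference of 1.46 (SE 0.60, limma adjusted p = 0.277). Ppargc1a, known for driving mitochondrial biogenesis in brown fat and muscle, read 5.13, 4.73 and 7.73 on the induced arrays, against 5.97, 3.92 and 4.08 on the control arrays, a difference of 1.21 (SE 0.89, limma adjusted p = 0.546). Both coactivators stood far above the other arrays on induced replicate 3, where the means of the adipocyte markers and of the mitoribosomal genes were also highest. A link between the coactivators and the mitoribosomal genes was not tested. Nrf1 and Gabpa encode the nuclear respiratory factors whose motifs were searched, and are named for that reason, after their values were seen. Nrf1 stood at -0.22 (SE 0.12, limma adjusted p = 0.411) and Gabpa at -0.32 (SE 0.13, limma adjusted p = 0.273).

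One pair of members lies head to head and is named for that, after its values were seen. Mrpl46, on the minus strand, and Mrps11, on the plus strand, are divided at their starts by 233 bases on chromosome 1. That sequence, chr1:142117031-142117263 of GRCr8, is given on the plus strand from the start of Mrpl46 to the start of Mrps11 and holds none of the searched motifs. Mrpl46 is still among the 16 genes counted above for the YY1 core, which lies outside this stretch.
Mrpl46 and Mrps11: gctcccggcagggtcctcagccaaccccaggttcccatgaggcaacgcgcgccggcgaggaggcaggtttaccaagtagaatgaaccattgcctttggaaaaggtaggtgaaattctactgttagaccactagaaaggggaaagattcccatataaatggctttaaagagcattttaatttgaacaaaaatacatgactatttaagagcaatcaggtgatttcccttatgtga
Mrpl46, a mitochondria-specific large subunit protein, read 7.46, 7.99 and 8.48 on induced replicates 1, 2 and 3, against 7.68, 7.46 and 7.45 on control replicates 1, 2 and 3, a difference of 0.45 (SE 0.25). Mrps11, the S11 homologue of the small subunit, read 6.98, 6.96 and 7.30 on the induced arrays, against 7.01, 6.72 and 6.76 on the control arrays, a difference of 0.25 (SE 0.15). The limma adjusted p was 0.422 for Mrpl46 and 0.434 for Mrps11. In both the groups overlapped and induced replicate 3 was the highest of the 6 arrays.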

How the data were processed

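Biotin-labelled cRNA from 6 µg of total RNA of 6 cultures was hybridised to one-colour Affymetrix arrays, per the labels' protocols. The authors deposited log2 values from RMA, per the submitters' processing notes, which name no version. That they are log2 was read from the values. RMA gives no detection call, compresses low signals and, by quantile normalization, hides a change in total RNA per cell. The number of arrays limits the precision.

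Of 36685 features, 18511 had 1 gene symbol and were reduced to 18166 genes by the feature with the highest mean. By gene number, all 72 members were found in RefSeq's GRCr8 table, whose coordinates serve for promoter sequences only.

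Induced and control arrays were fitted in R 4.3.3 by limma 3.58.1 (lmFit, eBayes, two-sided, no block, 4 residual and 2.65 prior degrees of freedom), with Benjamini-Hochberg adjustment over all genes, called at an adjusted p under 0.05. An exact permutation test of 3 against 3 cannot go below 0.1, so none was run. Lists are described by counts and medians without a test. Members, lists and motifs were chosen with earlier results of these data known. Named members are the 6 highest and 6 lowest estimates, the 6 smallest p, and Mrpl12, the Mrps18 genes and Mrps30; for each list up to 4 called genes or the 2 of largest change, with Pparg and Adipoq always; others are said to be chosen after their values were seen. Mrps36 and the mitochondrially encoded genes are not analysed here. Alternatives changed the feature choice, filter, variance prior, weights, block, centring and arrays.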

Additional observations from a re-analysis of the deposited data

How the results depend on the processing

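Under every alternative run, 0 of 72 mitoribosomal genes were called. Their smallest limma adjusted p, 0.156 as reported, ran from 0.059 with array weights to 0.34 without control replicate 3. The median estimate of the 72 was positive throughout, from 0.092 without both replicate 3 arrays and 0.14 without induced replicate 3 to 0.46 without induced replicate 1. With array weights the median was 0.21, with 55 positive estimates. Over all genes 136 were called as reported, 929 with array weights, 740 without both replicate 3 arrays, 69 over single features, 12 with the replicate block, and 2 (without induced replicate 1) to 557 (without induced replicate 3) with 1 array left out. With 1 array left out, 20 to 35 members had all induced arrays above all control arrays, where 15% to 18.1% of all genes did. At an unadjusted p under 0.05, 4 (without control replicate 2 or 3) to 21 (without induced replicate 1) members were positive. Over all genes the share was 5.22% and 5.04% without control replicates 2 and 3, and 7.81% without induced replicate 1. Without both replicate 3 arrays 6 of 72 members were positive at that level, where 8.24% of all genes were. These counts of members under each alternative were added after seeing the data. The filter on dim genes left 71 members. With the replicate block 0 members were called and 9 were positive at an unadjusted p under 0.05, where 7.54% of all genes were. Deviations of same-numbered arrays from their group means correlated at 0.023, 0.12 and 0.15 over genes for replicates 1, 2 and 3. Induced replicates 2 and 3 correlated best with the control array of their own number, and induced replicate 1 with control replicate 2. The labels tie no number to a shared source, so the numbers were not taken as pairs, and a shared source was not tested.

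Small estimates changed sign. Mrpl13 was at -0.051 with array weights, -0.096 without induced replicate 3 and -0.11 without both replicate 3 arrays. Mrpl54 was at -0.045 with array weights, -0.0095, -0.036 and -0.080 without control replicate 2, control replicate 3 and induced replicate 3, and ranged from -0.12 (without both replicate 3 arrays) to 0.070 (without control replicate 1). Mrpl58 ranged from -0.28 (without both replicate 3 arrays) to 0.075 (without induced replicate 1). Mrps15 ranged from -0.34 to 0.13 under the same alternatives and was at 0.028 without induced replicate 2. Mrps18a was at -0.13 without both replicate 3 arrays. The cause was not tested. Signal limits what dim genes show: 3 members had a mean below the median gene.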
